A study of Mus musculus with 8 samples.

Results

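The comparison follows the trachea of WlsShhCre mouse embryos from embryonic stage E11.5 to E13.5. Its members are 4 of the 8 samples of the study: 2 mutant libraries at E11.5 and 2 at E13.5, chosen by their genotype and stage labels. Every sample was a whole dissected trachea from which total RNA was made into a library with a kit that does not keep the strand. The other 4 samples, 2 control tracheas at each stage, served only to measure the same interval without the mutation. The labels give the mutant genotype as WlsShhCre and the other as control. They do not state the alleles that the controls carried, the strain, the sex, or how many embryos went into a library. Replicates are numbered 1 and 2 in each group, and nothing says whether they came from separate embryos or litters, so p-values measure only the spread between these libraries, which may be technical. The 2 stages were deposited as separate count tables. They were joined gene by gene, which left 16903 of 37528 entries with counts in both tables and with the same gene length behind them, and 13768 genes had enough counts to be tested.

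Wls (Wntless) is the membrane protein that carries Wnt ligands from the Golgi to the cell surface, and cells that lack it secrete little Wnt. Shh-Cre acts in the epithelium that lines the foregut and airways, so in this model the epithelium is the tissue that loses Wls, while the mesenchyme around it keeps the gene. Between the 2 stages the ventral mesenchyme of the trachea begins to condense into cartilage under the transcription factor Sox9. Its dorsal mesenchyme forms the trachealis smooth muscle, and its epithelium starts to make basal cells. Wnt signals from the epithelium are known in mouse to be needed for the cartilage and to limit the muscle.

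Library totals were between 9.9 M and 11.9 M estimated counts (M for mega) in 6 libraries, and 18.48 M and 16.76 M in the E13.5 mutants. Levels are given in CPM, the standard unit of counts scaled to the size of the library, listed as replicate 1 and replicate 2. Changes are log2 fold changes of E13.5 over E11.5 with their standard error (SE), each from 2 against 2 libraries, and a gene is said to have risen or fallen where edgeR's quasi-likelihood test gave an adjusted p below 0.05. The difference of stage effects is the mutant change minus the control change. Because the stages lie in separate tables, stage and table cannot be told apart, whereas anything the tables did alike to both genotypes cancels in the difference. Whatever set the E13.5 mutant libraries alone apart, such as their larger totals, does not cancel. It cannot be told apart from the difference of stage effects. Fewer cells of a type and less RNA per cell cannot be told apart in whole tissue.

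The labels went with the airway and epithelial markers shown here and with Wls, while cartilage, muscle and intestinal genes are given below. The 4 mutant libraries held the airway factor Nkx2-1 at 62.0 and 74.4 CPM at E11.5 and 93.4 and 92.1 CPM at E13.5, and the epithelial adhesion gene Epcam at 79.1 and 82.1 CPM and 209 and 218 CPM. Wls itself was measured at 118 and 109 CPM in the mutants at E11.5 and 74.1 and 71.8 CPM at E13.5, below all 4 control libraries, which held 155 and 164 CPM at E11.5 and 168 and 158 CPM at E13.5. It fell in the mutant (log2 change -0.64 ± 0.06, adjusted p = 3.15e-06) against a control change of 0.03 ± 0.06, and the difference was -0.67 ± 0.09 (adjusted p = 0.00076). Transcripts from the mesenchyme and any that persist from a deleted allele are counted in these values. Shh, the gene whose promoter drives the Cre, rose from 11.54 and 20.1 CPM to 30.8 and 29.6 CPM in the mutant (0.92 ± 0.20, adjusted p = 0.00512).

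The 2 E13.5 mutant libraries stood apart from the other 6 in a set of intestinal genes. The list of intestinal genes summed to 295 and 285.1 CPM in the E11.5 mutants, to between 217.9 and 243.3 CPM in the 4 controls, and to 68.24 and 80.66 CPM in the E13.5 mutants, where 13 and 15 of its 44 tested genes had no count. In the other 6 libraries none of the 44 was at 0. Over all genes, 69 were more than 10-fold below every other library in both E13.5 mutants, 52 of them at 0 counts in both. Of the 69, 10 had symbols that begin with Defa, for the alpha-defensin family, antimicrobial peptides of the small intestine. Any members of that family under other symbols were not counted. These 69 genes were chosen after their values were seen, and their part in any result was not tested; counts are given below with and without them.

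Of the 13768 genes, 6546 (47.5%) changed in the mutant between the stages: 3221 (23.4%) rose and 3325 (24.2%) fell. At least 2-fold changes numbered 1722 (12.5%), with 1210 (8.79%) higher and 512 (3.72%) lower at E13.5; without the 69 genes, 443 were lower by at least 2-fold. The mutant libraries of the 2 stages did not overlap for 10236 genes (74.3%), so a gap between the stages was the usual case and not by itself a mark of any gene. The median change over all genes was 0.01 on the log2 scale. In the control, 5705 genes (41.4%) changed, 2811 (20.4%) higher and 2894 (21.0%) lower, of which 1387 (10.1%) by at least 2-fold, 1136 (8.25%) higher and 251 (1.82%) lower. The mutant and control contrasts share no library. Of the genes called in both, 4267 moved in the same direction and 50 in opposite directions.

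The test of the difference called 482 genes (3.50%), 232 (1.69%) with the higher and 250 (1.82%) with the lower change in the mutant. By at least 2-fold these were 77 (0.559%) and 155 (1.13%), 232 in all (1.69%), and 64 of the 155 belonged to the 69 genes described above. Without those genes, 186 differences were lower, 91 of them by at least 2-fold. Among the 482 genes, 220 had changed in the mutant only, 67 in the control only, 145 in both in the same direction and 50 in opposite directions. A total of 177 differences were called whichever of the 8 libraries was left out. Where a difference called below was lost in this way, the highest adjusted p on leaving out 1 library is given with it.

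**Figure D1:**
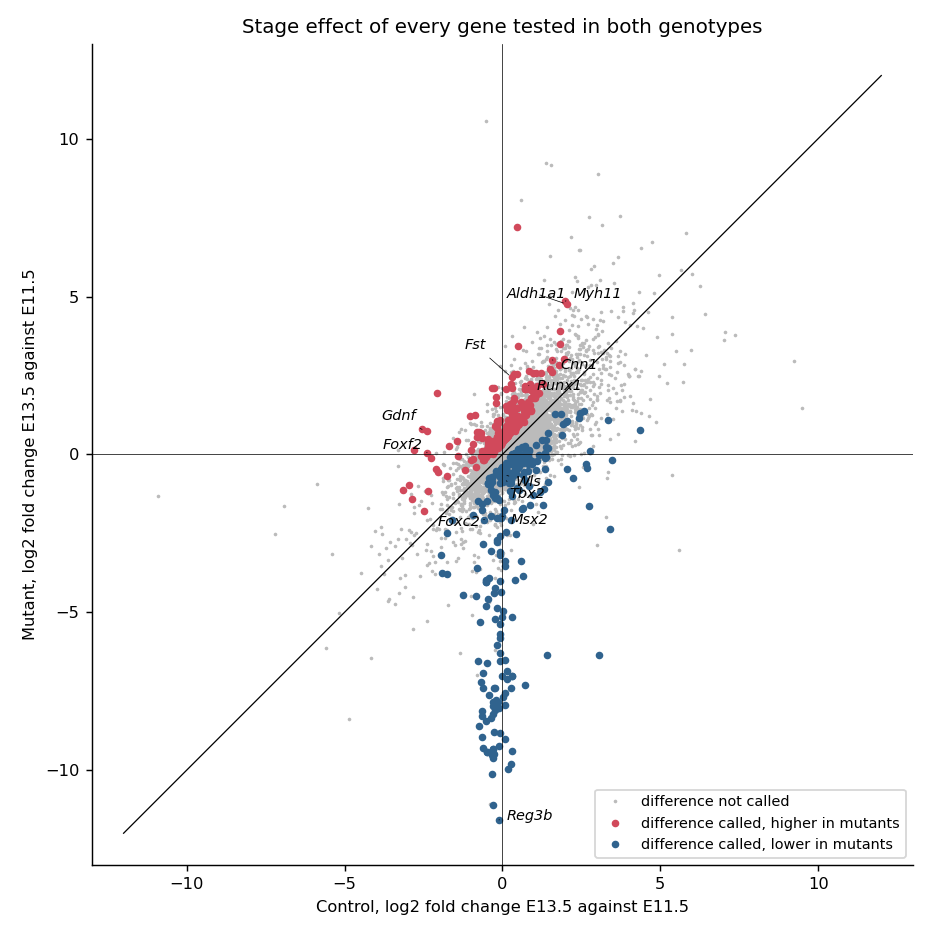
Log2 fold change from E11.5 to E13.5 in the mutant (vertical axis) against that in the control (horizontal axis), 1 point per gene tested (13768). Coloured points are the 482 genes whose difference of stage effects passed the test; Myh11, Aldh1a1 and Gdnf lie above the diagonal of equal change, and Reg3b, at 0 counts in both E13.5 mutants, lies far below it.

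Among the largest rises in the mutant were those of a matrix gene, a transporter and a homeobox gene. The ratio of counts was higher still for Aspn, which encodes the matrix protein asporin (199.2, with a 95% counting interval of 67.95 to 967.3). Its call was lost without either single library of the E11.5 mutants. Tnn, which encodes tenascin-N, a matrix glycoprotein of developing skeletal tissue, had 0.101 and 0.0881 CPM at E11.5 and 12.97 and 13.8 CPM at E13.5, a ratio of counts of 141.6 with a 95% counting interval of 38.99 to 1173. Abca8a, an ATP-binding cassette transporter, went from 0.202 and 0.176 CPM to 18.5 and 18.6 CPM (6.54 ± 0.53, adjusted p = 1.56e-05). The homeobox gene Otx1 went from 0.405 and 0.0881 CPM to 11.9 and 10.9 CPM (5.54 ± 0.81). All 3 also rose in the control, by 5.82, 4.38 and 3.08 on the log2 scale, and none of their differences passed the test. Prg4, which encodes the joint lubricant lubricin, rose from 0.911 and 1.32 CPM to 64.3 and 34.5 CPM, and the annexin Anxa1 from 2.13 and 2.47 CPM to 93.0 and 114 CPM. Trpm5, a cation channel of taste and tuft cells, rose from 3.24 and 2.03 CPM to 64.3 and 56.1 CPM, and the calcium-binding gene S100a6 from 1.42 and 1.23 CPM to 18.8 and 33.2 CPM. For these 4 the control rose too, by 3.54, 2.37, 3.43 and 2.88, with no difference past the threshold; the control call of Prg4 and Anxa1 was lost with 1 library left out (adjusted p up to 0.0506 and 0.0747).

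The largest falls were in intestinal and red cell genes. Among the intestinal genes, Reg3b, an antimicrobial lectin, had 27.0 and 33.5 CPM at E11.5 and no count at E13.5, at least 362.4-fold lower with 3 counts over the E13.5 mutants taken as the floor. Dmbt1, a mucosal scavenger receptor protein, was at least 259.4-fold lower on the same floor, and the defensin entry Defa24 at least 247-fold. Pigr, the receptor that carries antibodies across epithelia, went from 23.5 and 20.7 CPM to 0.215 and 0.234 CPM. The controls of both stages held these genes at like levels, with Reg3b at 19.2 and 18.4 CPM and 18.7 and 16.0 CPM. Many defensin genes are near-identical copies, and how reads were split among copies was not recorded in the labels or headers, so single defensin members are uncertain. Among the red cell genes, Hbb-bh1, an embryonic beta-like globin, fell from 473 and 378 CPM to 4.36 and 7.96 CPM (-6.12 ± 0.33, adjusted p = 0.000178), and fell as well in the control (-5.59 ± 0.31). Hemgn, an erythroid nuclear factor, had 15.3 and 10.1 CPM and then 0 and 0.0585 CPM, a ratio of 447 with a counting interval of 79.54 to 17720.

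**Figure D2:**
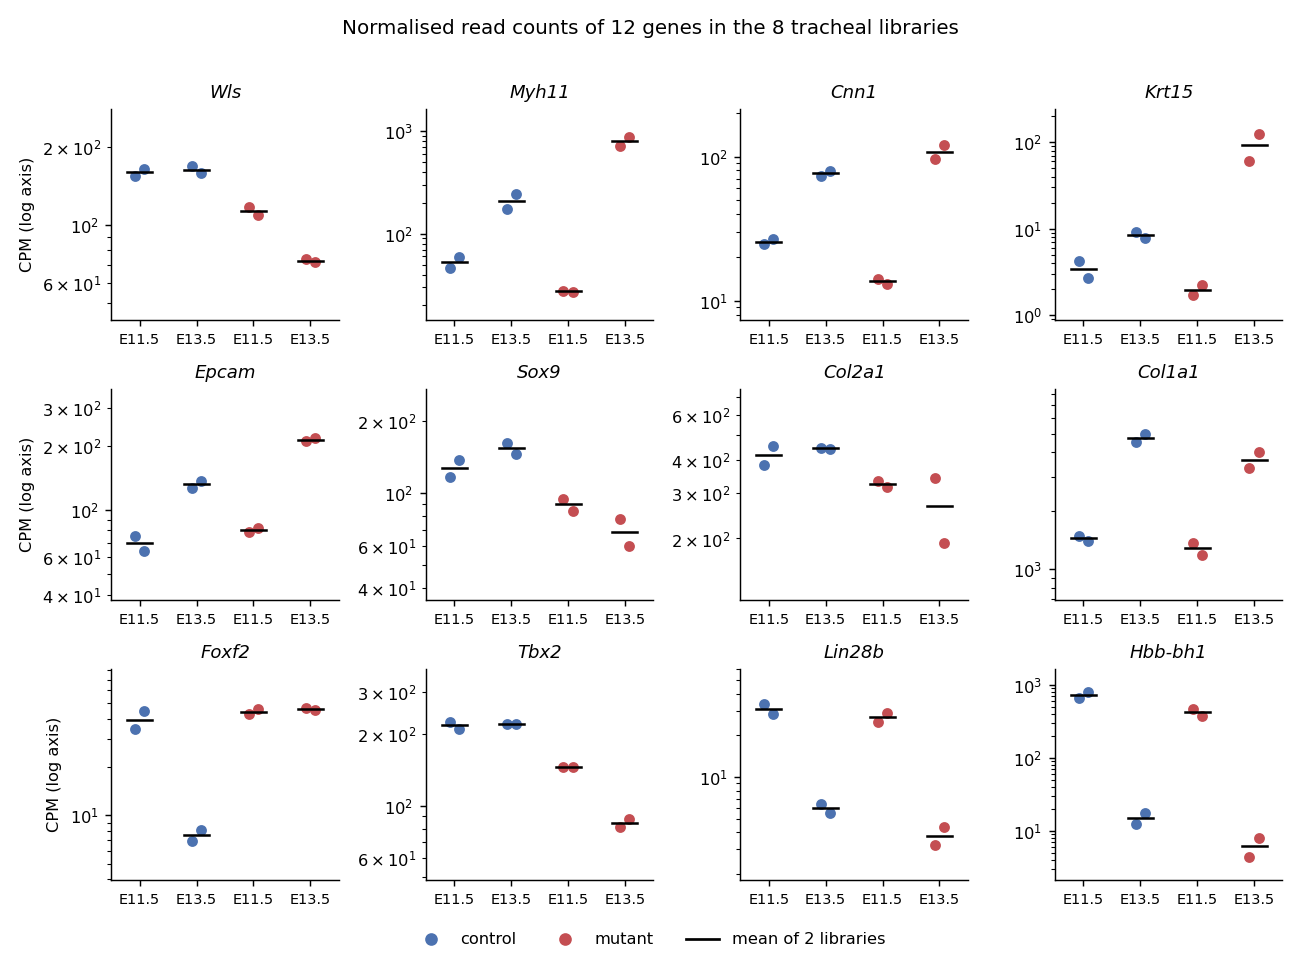
CPM on a log axis in each of the 8 libraries for 12 genes, controls in blue on the left and mutants in red on the right, with a black line at the mean of the 2 replicates. Myh11 and Krt15 rose most in the mutants, Foxf2 was high in both mutant stages and low in the E13.5 controls, and Hbb-bh1 and Lin28b fell in both genotypes.

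The smooth muscle genes rose in the mutant, and 11 of them rose more, or fell less, than in the control. Of 27 listed members tested, 21 rose and 2 fell, with a median log2 change of 0.98; in the control 12 rose and 5 fell, with a median of 0.47. Their difference was higher in 11 and lower in 0, beside 1.69% and 1.82% of all genes. DESeq2 called 14 higher and limma-voom 10. Neither called a lower one, and none was lower at an unadjusted p below 0.05. Mylk, Myocd, Npnt, Ppp1r12b and Tpm2 were listed but left out, because the gene length behind the counts differed between the tables.

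Myh11, the myosin heavy chain of smooth muscle, was at 27.8 and 27.2 CPM in the E11.5 mutants and 722 and 874 CPM in the E13.5 mutants, with the controls at 46.5 and 58.8 CPM and 175 and 244 CPM. The mutants were thus below both controls at E11.5 and above both at E13.5, with no overlap. The mutant change was 4.86 ± 0.25 (adjusted p = 0.000116), the control change 1.99 ± 0.23 (adjusted p = 0.0025), and the difference 2.87 ± 0.33 (adjusted p = 0.0213, up to 0.124 with 1 library left out). Cnn1, the actin-binding calponin of differentiated muscle, crossed over in the same way: the mutants had 14.2 and 13.04 CPM and then 96.1 and 120.3 CPM, the controls 24.6 and 26.6 CPM and then 73.8 and 79.2 CPM. Its mutant change was 2.99 ± 0.12 (adjusted p = 6.32e-09) and its difference 1.42 ± 0.16 (adjusted p = 0.000528), a call kept whichever library was left out.

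Acta2, smooth muscle alpha-actin, had 135 and 97.1 CPM and then 837 and 977 CPM in the mutants (2.97 ± 0.22, adjusted p = 0.00034). The controls went from 149 and 191 CPM to 412 and 432 CPM, and the difference of 1.66 ± 0.29 missed the threshold (adjusted p = 0.0649). Actg2, the gamma actin of smooth muscle, rose from 24.4 and 18.5 CPM to 193 and 251 CPM (3.38 ± 0.25), also without a called difference (adjusted p = 0.14). Tagln, the actin-binding transgelin, had 74.6 and 50.4 CPM and then 181 and 210.5 CPM (1.65 ± 0.28), and its difference was 0.80 ± 0.39 (adjusted p = 0.439). The members whose change differed included several regulators of contraction. Lmod1, an actin nucleator, differed by 1.52 ± 0.35 (adjusted p = 0.0331, up to 0.204). Mrvi1, a partner of the inositol trisphosphate receptor, rose from 17.6 and 12.96 CPM to 48.4 and 55.6 CPM (1.77 ± 0.13) while the controls went from 14.7 and 15.7 CPM to 18.6 and 20.8 CPM, a difference of 1.398 ± 0.19 (adjusted p = 0.00116, up to 0.0175). Synpo2, an actin-bundling protein, had 42.2 and 49.4 CPM and then 87.6 and 104.5 CPM (1.06 ± 0.13), against -0.18 ± 0.14 in the control, a difference of 1.24 ± 0.19 (adjusted p = 0.00824, up to 0.0593). The 2 members that fell in the mutant were Ppp1r14a, an inhibitor of myosin phosphatase (-0.85 ± 0.21), and Srf, the factor that switches on muscle genes (-0.41 ± 0.07). Srf fell further in the control (-0.84 ± 0.07), a difference of 0.43 ± 0.10 (adjusted p = 0.0255, up to 0.137).

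Srf binds the CArG box, made of CC, then 6 letters that are each A or T, then GG, a motif that reads alike on both strands. Promoters of 250 bases before the gene start were available from RefSeq (GRCm38.p6) for 22 of the 27 smooth muscle genes tested. The motif was in 2 of them (9.09%), in 146 of 9915 promoters of tested genes (1.47%) and in 439 of 27025 promoters of all genes (1.62%). Both are shown, with the motif in capitals, as the only genes with an exact match among these 22 promoters. Boxes with other letters, boxes further from the start and the listed genes without a promoter were not searched. In Myl9, at chr2:156775214-156775463 on the plus strand, it begins 161 bases before the start. In Srf, at chr17:46556163-46556412 on the minus strand, there are 2 boxes, beginning 82 and 62 bases before the start.
Myl9: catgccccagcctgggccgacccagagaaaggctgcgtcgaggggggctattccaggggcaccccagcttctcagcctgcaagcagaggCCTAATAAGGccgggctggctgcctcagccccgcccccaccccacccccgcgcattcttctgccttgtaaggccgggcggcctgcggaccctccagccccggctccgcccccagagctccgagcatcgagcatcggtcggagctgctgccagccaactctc
Srf: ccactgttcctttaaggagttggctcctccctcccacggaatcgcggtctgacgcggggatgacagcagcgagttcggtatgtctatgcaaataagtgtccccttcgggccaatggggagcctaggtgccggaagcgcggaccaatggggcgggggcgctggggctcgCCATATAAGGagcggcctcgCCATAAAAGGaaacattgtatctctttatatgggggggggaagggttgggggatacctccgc
The 2 genes moved in opposite directions in the mutant. Myl9, the regulatory light chain of myosin, rose from 102 and 84.5 CPM to 320.0 and 369 CPM (1.89 ± 0.14, adjusted p = 8.85e-05), and Srf went from 113 and 121 CPM to 87.8 and 89.3 CPM. A match is a description of the letters and not of a bound site.

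The highest differences from the control beside Myh11 were in genes of several kinds. Foxf2, a forkhead factor of gut and airway mesenchyme, had 42.5 and 45.7 CPM in the E11.5 mutants and 46.6 and 45.4 CPM in the E13.5 mutants. The controls went from 34.3 and 44.4 CPM to 6.93 and 8.14 CPM. The control level fell (-2.38 ± 0.14, adjusted p = 1.15e-07), the mutant change did not pass the test (0.06 ± 0.11, adjusted p = 0.679), and the difference was 2.44 ± 0.18 (adjusted p = 8.99e-06), called whichever library was left out. Gdnf, a neurotrophic ligand for the receptor Ret, went from 6.07 and 6.35 CPM to 8.56 and 12.99 CPM in the mutants and from 2.77 and 3.86 CPM to 0.655 and 0.468 CPM in the controls. Its difference was 3.34 ± 0.47 (adjusted p = 0.00108). Tll1, a tolloid protease that processes procollagens and the BMP inhibitor chordin, rose from 7.29 and 3.88 CPM to 25.9 and 21.4 CPM in the mutants, while the controls had 8.66 and 8.58 CPM and then 7.49 and 6.08 CPM (difference 2.45 ± 0.33, adjusted p = 0.00177). Itih2, a hyaluronan-binding serum protein subunit, had 5.37 and 6.87 CPM and 6.57 and 4.86 CPM in the mutants against a control fall from 4.33 and 4.29 CPM to 0.749 and 1.03 CPM (difference 2.16 ± 0.41, adjusted p = 0.00884, up to 0.0635). For the neuronal genes Npas4 and Trim9 the difference was 2.36 ± 0.43 (adjusted p = 0.00698) and 2.18 ± 0.38 (adjusted p = 0.00581).

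Cartilage matrix genes mostly rose in the mutant, while the change of their regulator Sox9 did not pass the test. Sox9, the master regulator of cartilage, had 94.7 and 84.4 CPM in the E11.5 mutants and 77.9 and 59.7 CPM in the E13.5 mutants, against 117 and 138 CPM and 163 and 145 CPM in the controls. All 4 mutant libraries were below all 4 controls. Its mutant change did not pass the test (-0.38 ± 0.15, adjusted p = 0.0857), nor did the control change (0.27 ± 0.15) or the difference (-0.65 ± 0.21, adjusted p = 0.204). Of 17 chondrogenic regulators tested, 8 rose and 2 fell in the mutant (median 0.74), and 8 rose and 3 fell in the control (median 0.81). Without replicate 1 of the E13.5 mutants, 4 fell.

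Of these regulators, 3 had a called difference by edgeR, 2 higher and 1 lower, while limma-voom called 1 higher and 0 lower. Runx1, a Runt-domain factor, rose from 5.77 and 5.73 CPM to 27.4 and 24.7 CPM in the mutants (2.18 ± 0.16, adjusted p = 2.34e-07) and from 11.4 and 9.27 CPM to 19.1 and 14.9 CPM in the controls, a difference of 1.46 ± 0.22 (adjusted p = 0.00214). Runx2, which drives chondrocyte and bone maturation, had 6.88 and 5.38 CPM and then 4.79 and 3.45 CPM in the mutants. In the controls it fell from 19.4 and 15.3 CPM to 3.93 and 4.49 CPM, so that the genotypes were far apart at E11.5 and overlapped at E13.5 (difference 1.47 ± 0.32, adjusted p = 0.0188, up to 0.109). Gdf5, a growth factor of joints and cartilage, rose less in the mutant, from 3.44 and 2.29 CPM to 7.05 and 7.61 CPM, than in the control, from 4.42 and 3.26 CPM to 21.8 and 23.8 CPM (difference -1.21 ± 0.31, adjusted p = 0.0497, up to 0.251). The called difference of Gdf5 was lost under 14 of 18 other settings, DESeq2 and limma-voom among them. Fgfr3, a receptor that restrains cartilage growth, rose by 1.69 ± 0.13 in the mutant and by 1.52 ± 0.12 in the control.

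Of 21 cartilage matrix genes, 14 rose and 1 fell in the mutant (median 1.52), and 16 rose and 1 fell in the control (median 1.64). The edgeR test called no difference in either direction, nor did DESeq2 or limma-voom, and 1 gene in each direction had an unadjusted p below 0.05. The count of rises in the mutant was 8 without replicate 2 of the E11.5 mutants, and that of falls was 2 without replicate 1 of the E13.5 mutants. Col2a1, the main fibrillar collagen of cartilage, had 332 and 316 CPM and then 343 and 193 CPM in the mutants (-0.27 ± 0.30, adjusted p = 0.505), with the 2 E13.5 libraries on either side of the E11.5 ones. Col9a2 rose from 27.0 and 29.0 CPM to 137.0 and 90.5 CPM (2.02 ± 0.25, adjusted p = 0.0024), and its companion collagen chain Col9a3 from 10.7 and 14.01 CPM to 95.4 and 49.0 CPM (2.54 ± 0.45, adjusted p = 0.0115, up to 0.068). Acan, the aggregating proteoglycan, was at 0.304 and 0.353 CPM and then 5.01 and 0.878 CPM in the mutants (adjusted p = 0.0589), and the controls reached 6.83 and 8.98 CPM. Epyc, a small proteoglycan of growth cartilage, rose by 3.31 ± 0.45. Replicate 1 of the E13.5 mutants was above replicate 2 for each of these 5 matrix genes. Hapln1, which links aggrecan to hyaluronan, was the member that fell, from 21.2 and 23.5 CPM to 6.08 and 9.25 CPM (-1.55 ± 0.16, adjusted p = 7.98e-06).

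**Figure D3:**
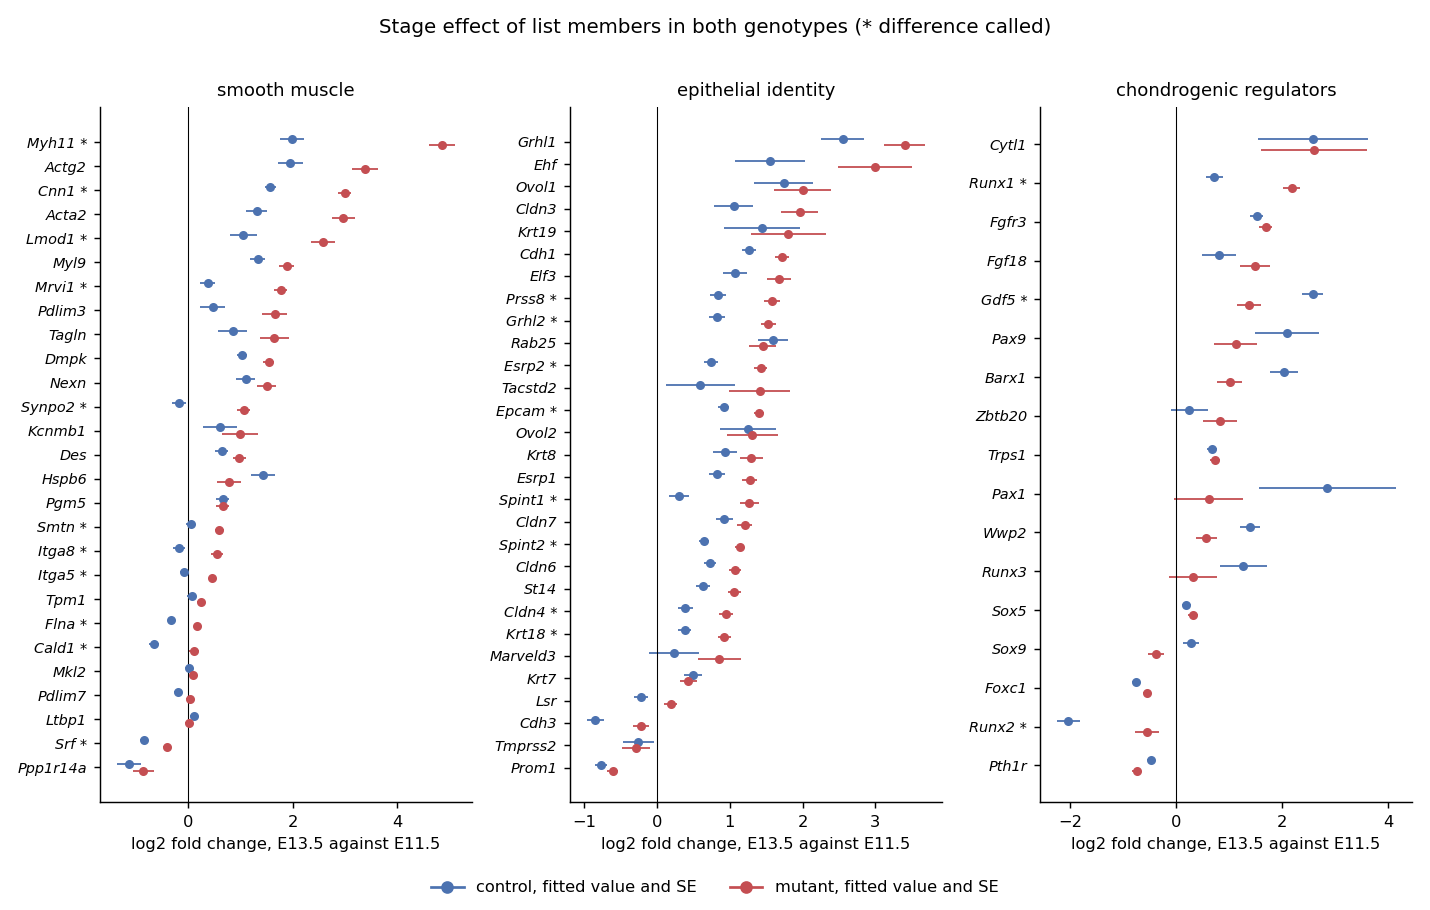
Log2 fold change from E11.5 to E13.5 with its standard error for members of 3 lists (smooth muscle, epithelial identity and chondrogenic regulators), in the mutant and the control; an asterisk marks genes whose difference of stage effects passed the test. Mutant values exceed control values for Myh11, Cnn1, Mrvi1 and Runx1, and the 2 genotypes lie close together for Fgfr3.

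The epithelial genes rose in both genotypes. Of 29 epithelial identity genes, 25 rose and 1 fell in the mutant (median 1.30), against 21 and 2 in the control (median 0.82). The difference by edgeR was higher in 8 and lower in 0. DESeq2 called 5 higher and limma-voom 3, so the count of higher differences depends on the tool. Neither called a lower one, and none was lower at an unadjusted p below 0.05. Cdh1, the epithelial cadherin, had 58.5 and 58.3 CPM at E11.5 and 192 and 191 CPM at E13.5 in the mutants (1.71 ± 0.10), and the controls went from 63.4 and 48.3 CPM to 132 and 136.6 CPM; the difference was 0.45 ± 0.14 (adjusted p = 0.12). Epcam rose by 1.41 ± 0.07 in the mutant and 0.92 ± 0.07 in the control, a difference of 0.49 ± 0.10 (adjusted p = 0.0183, up to 0.111). The splicing regulator Esrp2 had 20.9 and 21.4 CPM and then 57.6 and 56.1 CPM in the mutants, with a control change of 0.74 ± 0.10 (difference 0.69 ± 0.13, adjusted p = 0.00946, up to 0.0645). The serine protease inhibitors Spint1 and Spint2 differed by 0.97 ± 0.19 (adjusted p = 0.0109, up to 0.0706) and 0.48 ± 0.09 (adjusted p = 0.00956, up to 0.0545). The member that fell was Prom1, a protein of membrane protrusions (-0.60 ± 0.08).

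Among 17 regulators of the airway epithelium, 7 rose and 6 fell in the mutant (median -0.09), and 5 differences were called, each of them higher (2 lower at an unadjusted p below 0.05, and 1 each by DESeq2 and limma-voom). Sox2, the factor of the proximal airway, rose from 29.1 and 39.0 CPM to 135 and 138 CPM (1.99 ± 0.12, adjusted p = 1.03e-06), and from 28.7 and 26.2 CPM to 67.5 and 78.2 CPM in the control (difference adjusted p = 0.119). Foxa1, a pioneer factor of gut and airway epithelium, rose from 34.3 and 42.5 CPM to 149.6 and 131 CPM, with a difference of 0.81 ± 0.17 (adjusted p = 0.0264, up to 0.114); its relative Foxa2 rose from 34.1 and 40.3 CPM to 74.0 and 78.4 CPM, and its difference missed the threshold (adjusted p = 0.0536). Nkx2-1 rose by 0.44 ± 0.09 in the mutant and 0.34 ± 0.09 in the control, where the call was lost with 1 library left out (adjusted p up to 0.128). The homeobox genes Irx5, Irx1 and Irx2 of the Iroquois family had higher differences. Irx5 went from 21.1 and 21.2 CPM to 32.5 and 29.0 CPM in the mutants and from 16.4 and 17.0 CPM to 8.99 and 10.2 CPM in the controls, opposite directions that both passed the test (difference 1.34 ± 0.16, adjusted p = 0.000383). Irx1 fell less in the mutants, from 67.2 and 86.5 CPM to 46.2 and 33.0 CPM, than in the controls, from 72.6 and 81.9 CPM to 10.7 and 9.36 CPM (difference 1.99 ± 0.30, adjusted p = 0.0224, up to 0.134). Irx2 differed by 1.67 ± 0.28 (adjusted p = 0.0265, up to 0.171). Foxp1, a forkhead repressor, differed by 0.53 ± 0.08 (adjusted p = 0.00163).

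Genes of basal and differentiated airway cells were mostly low at E11.5. Of 24 tested, 10 rose and 3 fell in the mutant (median 1.91), and 4 rose and 3 fell in the control (median 0.80). Trp63, the defining factor of basal cells, rose from 4.76 and 5.73 CPM to 27.1 and 34.8 CPM in the mutants (2.55 ± 0.20, adjusted p = 1.69e-06) and from 7.37 and 5.41 CPM to 25.1 and 19.6 CPM in the controls, with a difference of 0.74 ± 0.29 (adjusted p = 0.232). The keratins that mark basal and squamous cells reached much higher values in the E13.5 mutants than in any other library. Krt15 had 1.72 and 2.20 CPM and then 60.1 and 124 CPM (5.53 ± 0.61, adjusted p = 0.00224), with the E13.5 controls at 9.17 and 7.86 CPM. Krt5 had 1.11 and 1.15 CPM and then 10.9 and 26.8 CPM (4.05 ± 0.57, adjusted p = 0.00117), with the E13.5 controls at 1.404 and 0.749 CPM. Krt17 had 0.304 and 0.529 CPM and then 9.85 and 18.5 CPM, with the E13.5 controls at 4.02 and 2.90 CPM. Replicate 2 was above replicate 1 for each of the 3, and the differences from the control change did not pass the test (adjusted p = 0.174, 0.245 and 0.0698). Krt4, a keratin of the upper layers of squamous epithelium, had no count in the E11.5 mutants and 1.78 and 3.51 CPM at E13.5, at least 18.45-fold higher with the floor of 3 counts over the E11.5 mutants. Ccno, which drives the amplification of basal bodies in ciliated cells, rose from 4.86 and 3.53 CPM to 32.7 and 32.8 CPM. The mutant change of Foxj1, a factor of ciliated cells, did not pass the test (adjusted p = 0.0586), nor did its difference (adjusted p = 0.457). The falls included Reg3g and Agr2, which belong to the 69 genes described above, so this list's 2 lower differences are theirs; 1 difference was higher (5 by DESeq2). Of the 6 tested distal lung genes, 2 rose and 1 fell in the mutant; the fall was in Cldn18, a lung claudin (-1.42 ± 0.20), which fell further in the control (-2.86 ± 0.24, difference adjusted p = 0.0237, up to 0.148).

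Of 6 Wnt ligands tested, 2 rose and 1 fell in the mutant, and 1 rose whichever of the 4 E11.5 libraries was left out. Wnt7b, made by the airway epithelium, had 105 and 122 CPM and then 230.2 and 194 CPM in the mutants (0.90 ± 0.09, adjusted p = 3.73e-05), against 108 and 104.2 CPM and 108 and 119.6 CPM in the controls (difference 0.80 ± 0.14, adjusted p = 0.0113, up to 0.0678). Wnt5a, a ligand of the pathway branch without beta-catenin, fell from 163 and 148 CPM to 122 and 116 CPM (-0.38 ± 0.07), with 0.10 ± 0.07 in the control (difference -0.48 ± 0.09, adjusted p = 0.0114, up to 0.0771). Wnt2, a mesenchymal ligand, had 18.3 and 19.4 CPM and then 18.1 and 23.5 CPM in the mutants, while the controls fell from 18.1 and 13.6 CPM to 7.11 and 8.61 CPM (difference 1.14 ± 0.24, adjusted p = 0.0206, up to 0.121).

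Of 22 genes known as targets of beta-catenin, 5 rose and 12 fell in the mutant (median -0.30), and 3 rose and 10 fell in the control (median -0.27), with differences higher in 5 and lower in 3. With genes required to reach 5 CPM in 2 libraries, 7 of the targets fell. Axin2, a negative regulator and the most general target, had 34.7 and 29.9 CPM and then 18.5 and 18.96 CPM in the mutants, and 50.3 and 46.5 CPM and then 27.6 and 23.9 CPM in the controls. The mutants were lower at each stage, and both falls passed the test (-0.78 ± 0.10 and -0.91 ± 0.10), with a difference of 0.13 ± 0.14 (adjusted p = 0.749). Notum, an extracellular deacylase of Wnt ligands, went from 5.97 and 8.20 CPM to 2.21 and 2.63 CPM in the mutants and from 29.0 and 22.2 CPM to 17.2 and 18.0 CPM in the controls (difference -1.02 ± 0.27, adjusted p = 0.0608). The growth genes Myc and Ccnd1 fell in the mutant relative to the control. Myc went from 59.3 and 64.2 CPM to 27.6 and 29.4 CPM (-1.12 ± 0.08; difference -0.75 ± 0.11, adjusted p = 0.00195). Ccnd1 fell from 268 and 295 CPM to 224 and 228 CPM in the mutants and rose from 311 and 319.6 CPM to 405 and 379.7 CPM in the controls (difference -0.63 ± 0.09, adjusted p = 0.000924). Tnfrsf19, a tumour necrosis factor receptor of progenitors, moved the other way, from 92.2 and 84.0 CPM to 356 and 265 CPM in the mutants against 184 and 165 CPM and 151 and 155 CPM in the controls (difference 2.01 ± 0.21, adjusted p = 0.00703, up to 0.0647).

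Of 27 Wnt receptors and secreted modulators, 7 rose and 7 fell in the mutant (25.9% each, beside 23.4% and 24.2% of all genes); 4 rose without replicate 2 of the E11.5 mutants. Rspo2, an R-spondin that strengthens Wnt signals, fell from 148 and 129 CPM to 34.3 and 46.9 CPM (-1.77 ± 0.15), and fell in the control as well (-1.35 ± 0.16). Rspo3 rose less in the mutant (1.16 ± 0.19) than in the control (2.44 ± 0.20), a difference of -1.27 ± 0.28 (adjusted p = 0.0326, up to 0.13). The frizzled receptor Fzd1 fell from 167 and 161 CPM to 120.3 and 123 CPM, with the controls at 162 and 174 CPM and 176 and 175 CPM (difference -0.50 ± 0.08, adjusted p = 0.00283). The Wnt genes Lef1, Tcf7, Wnt4, Wnt11 and Wnt2b were left out for differing length.

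The BMP list, of ligands, receptors, inhibitors and targets, held 33 tested genes, of which 12 rose and 7 fell in the mutant (median 0.01), with 3 differences in each direction. The ligand Bmp4 had 25.7 and 26.4 CPM and then 16.9 and 20.2 CPM in the mutants (-0.49 ± 0.10, adjusted p = 0.00141), below the controls at both stages, 33.9 and 37.0 CPM and 34.0 and 33.5 CPM (difference -0.42 ± 0.14, adjusted p = 0.144). The 2 inhibitors with the clearest values rose. Fst (follistatin), which binds activins and BMPs, went from 3.24 and 3.61 CPM to 20.3 and 17.0 CPM in the mutants, and the controls had 4.06 and 6.44 CPM and then 6.36 and 6.55 CPM (difference 2.14 ± 0.31, adjusted p = 0.00144). Chrdl1 (chordin-like 1) went from 31.1 and 29.3 CPM to 127 and 119 CPM, against 23.4 and 25.1 CPM and 42.8 and 47.6 CPM in the controls (difference 1.13 ± 0.12, adjusted p = 0.000114). Msx1, a homeobox gene of the fixed set, had no called change in the mutant (adjusted p = 0.317) and no called difference (adjusted p = 0.441). The 3 lower differences were in target genes. Id3, an inhibitor of basic helix-loop-helix factors, fell from 209 and 211 CPM to 117 and 136 CPM (-0.73 ± 0.07; difference -0.70 ± 0.10, adjusted p = 0.00121). Its relative Id1 had 43.5 and 44.1 CPM and then 40.0 and 46.6 CPM in the mutants while the controls rose from 53.8 and 47.8 CPM to 77.2 and 76.5 CPM (difference -0.61 ± 0.12, adjusted p = 0.0122, up to 0.0731). The homeobox gene Msx2 fell from 4.56 and 3.17 CPM to 0.807 and 1.17 CPM, with the controls at 7.93 and 5.83 CPM and 6.27 and 7.21 CPM (difference -1.93 ± 0.41, adjusted p = 0.0167, up to 0.0879).

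Of 15 hedgehog genes, 3 rose and 6 fell in the mutant, with 2 higher differences, in Foxf2 and Hhip. Hhip, which sequesters hedgehog ligand, went from 75.2 and 65.4 CPM to 96.98 and 99.97 CPM in the mutants and from 91.2 and 101 CPM to 60.2 and 80.2 CPM in the controls (difference 0.94 ± 0.18, adjusted p = 0.0344, up to 0.126). Gli1, the transcription factor that reads out the pathway, had 125 and 121 CPM and then 125 and 114 CPM in the mutants (-0.04 ± 0.10, adjusted p = 0.758). Ptch1 was left out for differing length. Of 20 FGF genes, 11 rose and 3 fell (median 0.62). Fgf10, the mesenchymal ligand for lung budding, rose from 12.8 and 11.02 CPM to 16.4 and 18.4 CPM (0.55 ± 0.14, adjusted p = 0.00442, up to 0.0645). Its epithelial receptor Fgfr2 rose from 127 and 129 CPM to 274 and 256 CPM, and the feedback inhibitor Spry1 from 19.2 and 18.8 CPM to 44.2 and 41.0 CPM. Both rose more than in the control, by 0.43 ± 0.08 (adjusted p = 0.0113, up to 0.0681) and 0.65 ± 0.14 (adjusted p = 0.0203, up to 0.112). Etv5, a target factor of FGF signals, fell in both genotypes (-1.36 ± 0.23 in the mutant, -1.19 ± 0.25 in the control, where the call was lost with 1 library left out, adjusted p up to 0.0875).

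Among 39 patterning factors of the mesenchyme, 8 rose and 18 fell in the mutant (median -0.54), against 5 and 16 in the control (median -0.30); 5 rose without replicate 2 of the E11.5 mutants. Tbx2, a T-box factor of lung and tracheal mesenchyme, had 145 and 145 CPM in the E11.5 mutants and 81.5 and 88.1 CPM in the E13.5 mutants. The controls held 224 and 211 CPM and then 221 and 222 CPM. The mutants were thus below the controls at E11.5 and fell further (-0.78 ± 0.06, adjusted p = 3.08e-07), and the difference was -0.80 ± 0.08 (adjusted p = 9.39e-05). Tbx4 and Tbx5, the pair of T-box factors needed for tracheal cartilage in mouse, showed the same order with smaller differences. Tbx4 went from 40.6 and 42.7 CPM to 15.9 and 21.2 CPM in the mutants and from 92.4 and 82.0 CPM to 56.3 and 68.4 CPM in the controls (difference -0.69 ± 0.20, adjusted p = 0.109). Tbx5 went from 94.5 and 90.7 CPM to 33.4 and 38.9 CPM in the mutants and from 185 and 178 CPM to 88.1 and 98.4 CPM in the controls (difference -0.40 ± 0.11, adjusted p = 0.0663). Neither difference passed the test.

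Foxc2, a forkhead factor of condensing mesenchyme and lymphatics, started higher in the mutants and ended lower. It fell from 57.5 and 53.4 CPM to 12.9 and 13.6 CPM in the mutants and from 41.2 and 48.1 CPM to 28.6 and 31.6 CPM in the controls (difference -1.496 ± 0.14, adjusted p = 4.75e-05). The nuclear receptor Nr2f1 fell from 72.6 and 71.7 CPM to 26.4 and 33.0 CPM (difference -0.99 ± 0.14, adjusted p = 0.00132). Eya1, a co-activator in branchial and airway development, rose from 30.5 and 29.0 CPM to 65.5 and 47.8 CPM, with the controls at 24.4 and 24.2 CPM and 22.4 and 21.0 CPM (difference 1.10 ± 0.20, adjusted p = 0.0116, up to 0.0706). Of 15 Hox genes tested, 1 rose and 8 fell in the mutant; with genes required to reach 5 CPM in 2 libraries, 5 fell. Hoxa5, which patterns the tracheal cartilage rings, had 41.8 and 42.9 CPM and then 31.3 and 38.2 CPM in the mutants while the controls rose from 52.0 and 42.0 CPM to 90.7 and 90.9 CPM (difference -1.24 ± 0.15, adjusted p = 0.000982). Its neighbour Hoxa4 had 39.7 and 38.9 CPM and then 38.3 and 40.9 CPM in the mutants, and the controls rose from 38.4 and 35.6 CPM to 62.6 and 56.3 CPM (difference -0.67 ± 0.12, adjusted p = 0.00588).

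**Figure D4:**
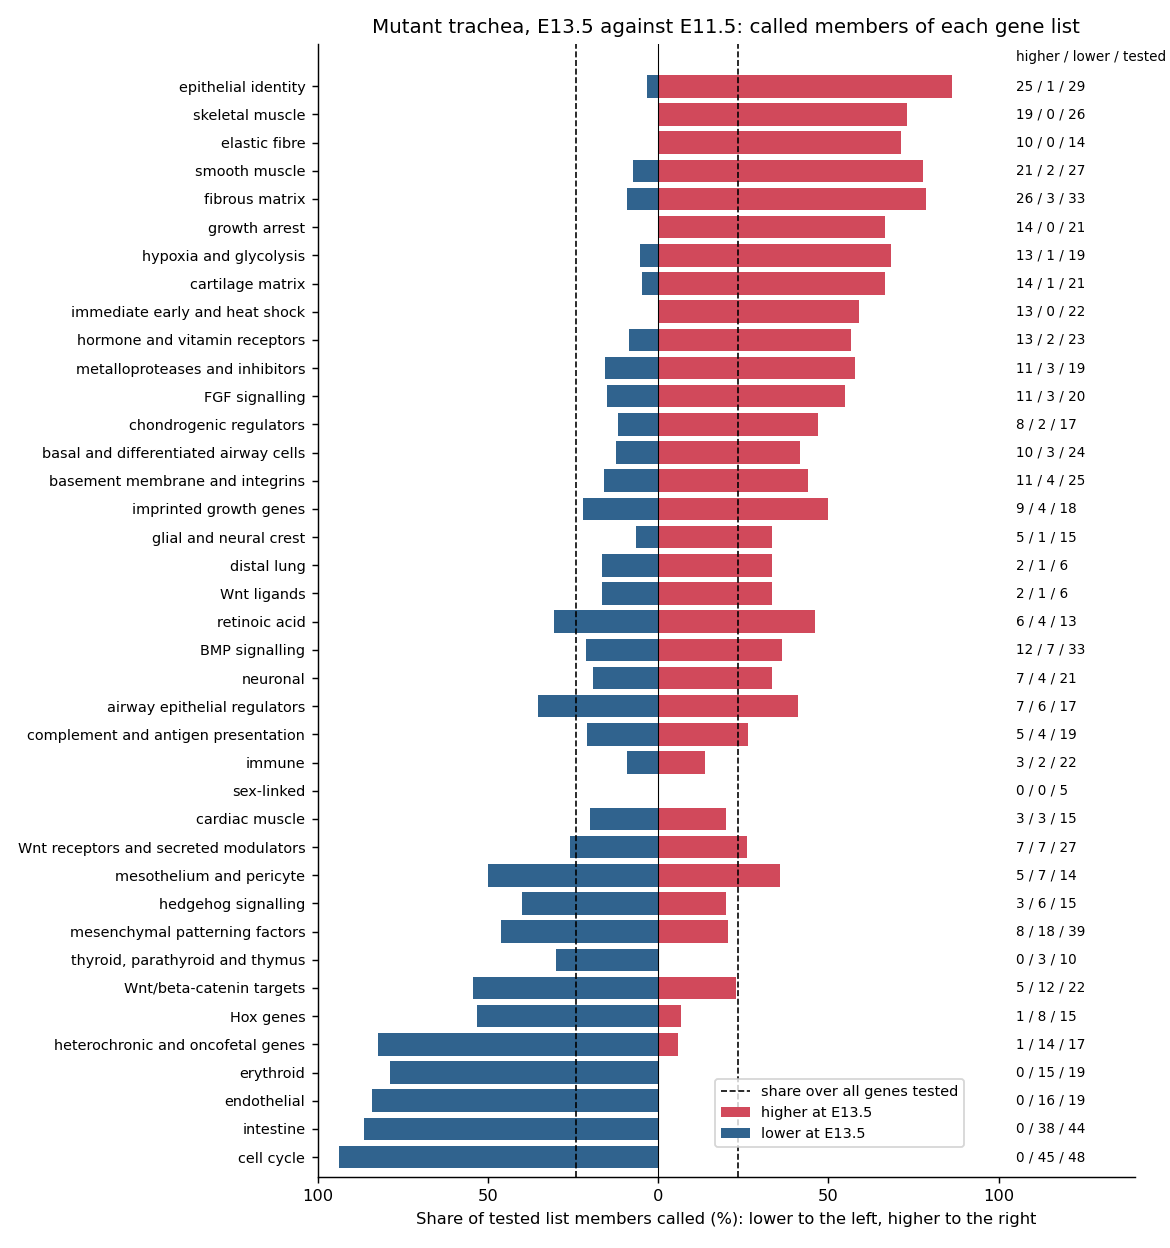
Share of the tested members of each list that rose (right) or fell (left) in the mutant from E11.5 to E13.5, in percent, with the numbers higher, lower and tested at the right; dashed lines mark the shares over all genes, 23.4% and 24.2%. Cell cycle, heterochronic, endothelial, erythroid and intestinal genes extend to the left, and epithelial, smooth muscle and matrix genes to the right.

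Genes that time embryonic growth fell in both genotypes. Of 17 heterochronic and oncofetal genes, 14 fell and 1 rose in the mutant, or 0 rose by DESeq2 and without replicate 1 of either mutant stage (median -1.09), and 15 fell in the control (median -0.9998). Lin28b, which blocks the maturation of let-7 microRNAs, fell from 25.005 and 29.2 CPM to 3.23 and 4.33 CPM in the mutants (-2.85 ± 0.16, adjusted p = 2.33e-08), and from 33.8 and 28.7 CPM to 6.36 and 5.52 CPM in the controls. Its relative Lin28a went from 4.45 and 6.87 CPM to 0.108 and 0 CPM, a ratio of counts of 102.5 with a 95% counting interval of 27.78 to 856. Hmga2, a chromatin protein that let-7 represses, fell from 827 and 839 CPM to 193 and 200.3 CPM (-2.08 ± 0.08), and in the control (-1.58 ± 0.08) (difference -0.50 ± 0.11, adjusted p = 0.0188, up to 0.0925). The RNA-binding gene Igf2bp1 fell from 268 and 275 CPM to 129 and 127 CPM (-1.09 ± 0.05). Trim71, a ubiquitin ligase of early embryos, fell less in the mutant, from 5.16 and 5.73 CPM to 2.21 and 2.81 CPM, than in the control, from 6.54 and 6.95 CPM to 0.562 and 0.936 CPM (difference 2.03 ± 0.42, adjusted p = 0.014, up to 0.101).

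The cell cycle genes fell together by small amounts. Of 48, 45 fell and 0 rose in the mutant (median -0.54), 46 fell in the control (median -0.50), and edgeR, DESeq2 and limma-voom called no difference in either direction (1 higher and 5 lower at an unadjusted p below 0.05). Mki67, a marker of dividing cells, had 762 and 715 CPM and then 649.9 and 608 CPM (-0.23 ± 0.06, adjusted p = 0.00575, or 0.0594 without replicate 2 of the E13.5 mutants). Rrm2, which makes deoxynucleotides, fell from 184 and 194 CPM to 87.5 and 93.8 CPM (-1.06 ± 0.06). Of 21 growth arrest genes, 14 rose and 0 fell in the mutant (median 0.83), with 0 lower at an unadjusted p below 0.05 and 1 lower without replicate 2 of the E13.5 mutants, and likewise 14 and 0 in the control. Btg2, an antiproliferative gene, rose from 21.8 and 20.5 CPM to 75.3 and 71.7 CPM in the mutants and from 19.7 and 23.4 CPM to 44.0 and 44.5 CPM in the controls (difference 0.76 ± 0.13, adjusted p = 0.00501). Of 18 imprinted growth genes, 9 rose and 4 fell. The growth factor Igf2 rose from 3538 and 3525 CPM to 4364 and 4026 CPM (0.25 ± 0.06), less than in the control (0.61 ± 0.06; difference -0.36 ± 0.08, adjusted p = 0.0222, up to 0.119). Plagl1, a zinc finger factor, rose from 379 and 361 CPM to 505 and 524 CPM in the mutants, and the controls had 515 and 486 CPM and then 474 and 460.4 CPM (difference 0.57 ± 0.08, adjusted p = 0.00116).

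Genes of the connective tissue matrix rose in both genotypes. Of 33 fibrous matrix genes, 26 rose and 3 fell in the mutant (median 1.15), against 25 and 1 in the control (median 1.41), with 1 difference in each direction. Col1a1, the main collagen of fibrous tissue, went from 1367 and 1184 CPM to 3311 and 4032 CPM in the mutants (1.53 ± 0.11, adjusted p = 5.17e-06) and from 1477 and 1395 CPM to 4498 and 4965 CPM in the controls (1.72 ± 0.11). Col6a2, a chain of the microfibrillar collagen VI, rose from 103.6 and 92.1 CPM to 748 and 825 CPM, a difference of 1.04 ± 0.17 from the control (adjusted p = 0.016, up to 0.135). Its partner Col6a3 rose from 41.6 and 27.7 CPM to 645 and 637 CPM (4.22 ± 0.44). Thbs1 (thrombospondin 1) went the other way, from 215 and 199.6 CPM to 184 and 165 CPM in the mutants and from 164 and 170.2 CPM to 229.9 and 215 CPM in the controls (difference -0.66 ± 0.09, adjusted p = 0.00101). Of 14 elastic fibre genes, 10 rose and 0 fell in each genotype (in the mutant also 0 at an unadjusted p below 0.05 and 0 by DESeq2 and limma-voom). Eln, which encodes elastin, rose from 147 and 91.5 CPM to 630.0 and 486 CPM in the mutants (2.23 ± 0.33, adjusted p = 0.00627) and by 2.57 ± 0.33 in the control. Of 25 basement membrane and integrin genes, 11 rose and 4 fell in the mutant, and 3 differences were higher and 1 lower. The laminin chain Lama5 rose from 126 and 133 CPM to 229 and 203 CPM, a difference of 0.52 ± 0.10 (adjusted p = 0.00834, up to 0.0609). Of 19 metalloproteases and inhibitors, 11 rose and 3 fell, or 1 fell without replicate 2 of the E11.5 mutants. The inhibitor Timp3 rose from 119.6 and 105 CPM to 254 and 273 CPM.

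Markers of several other cells that a dissected trachea can hold also moved. Over all genes, 23.4% rose and 24.2% fell in the mutant. The shares were no higher for cardiac genes (20% each) or immune genes (13.6% and 9.09%). Of 19 erythroid genes, 15 fell in the mutant and 16 in the control, with medians of -2.54 and -2.81. Neither edgeR nor DESeq2 nor limma-voom called a difference (0 higher and 3 lower at an unadjusted p below 0.05). Their summed level was 6332 and 3621 CPM in the E11.5 mutants and 1232 and 1277 CPM in the E13.5 mutants. Of 19 endothelial genes, 16 fell and 0 rose in the mutant, or 1 rose without replicate 2 of the E13.5 mutants (median -0.68), against 6 and 1 in the control (median -0.19). A lower difference was called for Tek alone, the angiopoietin receptor (-0.75 ± 0.18, adjusted p = 0.0497, up to 0.203). That was the edgeR call. DESeq2 called 4 lower endothelial differences and limma-voom 1, and by edgeR 9 were lower and 0 higher at an unadjusted p below 0.05. The endothelial sum went from 1050 and 848.7 CPM to 561.6 and 617.3 CPM in the mutants, and the E13.5 controls held 790.2 and 898.8 CPM. The junction gene Pecam1, a defining endothelial marker, fell from 82.6 and 63.7 CPM to 50.2 and 57.2 CPM (-0.44 ± 0.11, adjusted p = 0.00682), and Vwf, which encodes von Willebrand factor, from 80.3 and 48.8 CPM to 12.9 and 14.7 CPM (-2.22 ± 0.38, adjusted p = 0.0094, up to 0.0649).

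Muscle of the other types was seen as well. Of 26 skeletal muscle genes, 19 rose in the mutant and 5 in the control, with medians of 2.79 and 1.84 and no difference by edgeR, DESeq2, limma-voom or at an unadjusted p below 0.05. The count of rises was 3 without either single E11.5 mutant library, 10, 11 and 12 without replicate 1 or 2 of the E11.5 controls or replicate 2 of the E13.5 controls, and 4 when the mutant libraries were fitted alone. Their sum was 149.8 and 199.6 CPM at E11.5 and 1509 and 576.5 CPM at E13.5, so replicate 1 of the E13.5 mutants was the higher. The same replicate was the higher for 15 cardiac genes, whose sum was 113.6 and 113.7 CPM and then 356.3 and 125.5 CPM, while the controls at E13.5 held 1250 and 562.8 CPM. Of these genes 3 rose and 3 fell, with 1 and 1 without replicate 2 of the E11.5 mutants and 5 rising without replicate 2 of the E13.5 mutants and 8 rising by DESeq2. The smooth muscle list had the opposite order at E13.5, with a sum of 7097 and 7887 CPM against 4586 and 4198 CPM at E11.5. The part of other muscle in the smooth muscle counts was not tested.

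**Figure D5:**
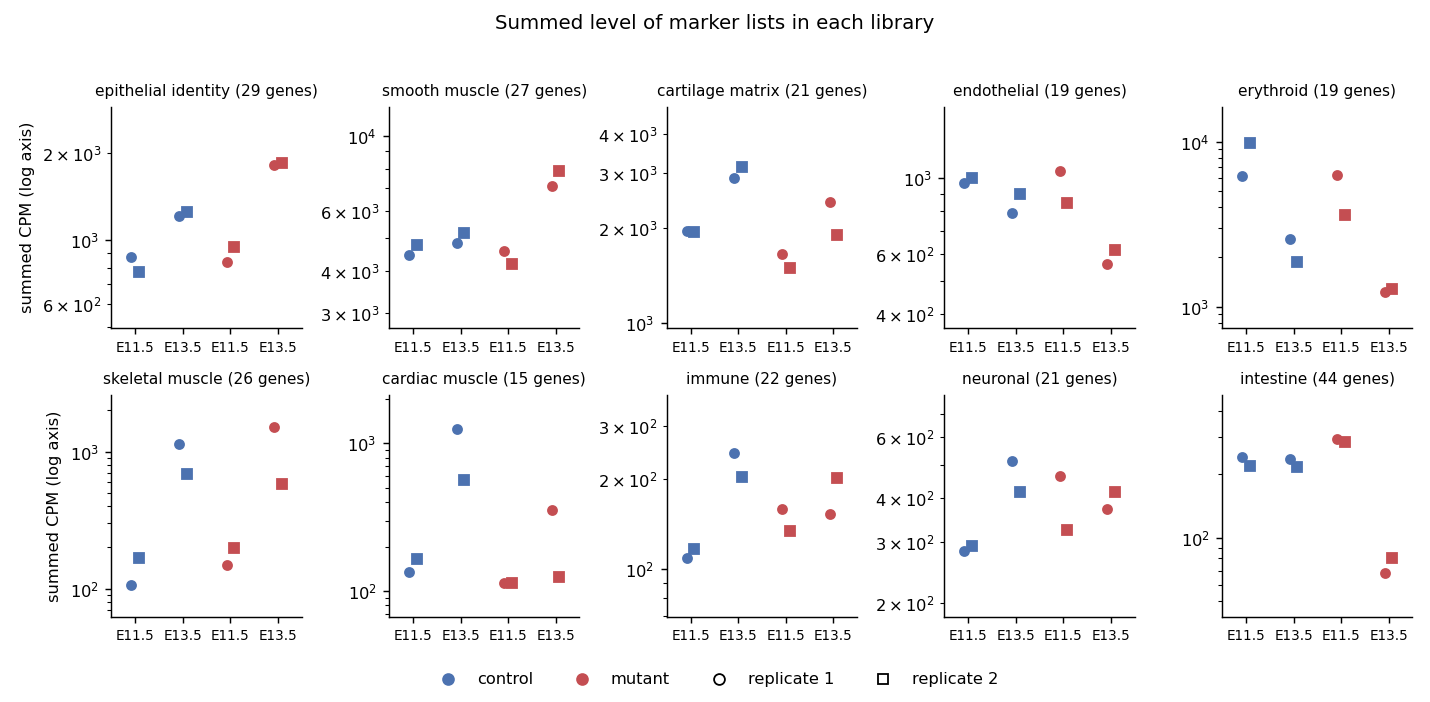
Summed CPM of 10 lists in each of the 8 libraries, controls in blue and mutants in red. The erythroid sum fell with stage in both genotypes, the intestinal sum was lowest in the 2 E13.5 mutants, and the skeletal and cardiac sums were higher in replicate 1 than in replicate 2 at E13.5.

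Of 21 neuronal genes, 7 rose and 4 fell in the mutant (median 0.40), and 13 rose and 1 fell in the control (median 1.29). The falls were 2 without either single E11.5 control or E13.5 mutant. The rises were 14 without replicate 1 and 4 without replicate 2 of the E11.5 mutants, which differed in neuronal RNA: Tubb3, the neuronal tubulin, was at 40.5 and 19.04 CPM there and at 28.6 and 35.1 CPM at E13.5. Dcx, a microtubule protein of young neurons, had 47.3 and 36.7 CPM and then 34.2 and 33.5 CPM in the mutants while the controls rose from 21.8 and 21.1 CPM to 41.0 and 33.9 CPM (difference -1.11 ± 0.17, adjusted p = 0.0038). Of 15 glial and neural crest genes, 5 rose and 1 fell, and 3 rose without replicate 2 of the E11.5 mutants. Of 22 immune genes, 3 rose and 2 fell in the mutant, and 15 rose in the control; 7 rose in the mutant without replicate 1 of the E13.5 mutants, and 1 fell without that library or either E11.5 mutant. With all libraries edgeR called no difference in them (0 higher and 11 lower at an unadjusted p below 0.05, and 0 and 1 by DESeq2), where the mutant median was 0.29 and the control median 1.04. Of 14 mesothelial and pericyte genes, 5 rose and 7 fell; 3 rose without replicate 2 and 4 fell without replicate 1 of the E11.5 mutants. Of 10 genes of thyroid, parathyroid and thymus, 3 fell in the mutant, or 5 without either single E11.5 control, replicate 1 of the E13.5 controls or replicate 1 of the E13.5 mutants, and 3 rose in the control. Pax8, a thyroid factor, was not among the falls. It had 2 counts over the E11.5 mutants and 10 over the E13.5 mutants. That is a ratio of 2.975 with a 95% counting interval of 0.6341 to 27.93. Between genotypes, it had 0.0538 and 0.527 CPM in the E13.5 mutants and 5.90 and 8.33 CPM in the E13.5 controls. None of 5 sex-linked genes passed the test with stage in either genotype (0 by DESeq2 and limma-voom in the mutant, and 0 at an unadjusted p below 0.05), and 1 fell without replicate 2 of the E13.5 mutants. Xist, the X-inactivation RNA, differed within the stages, with 841 and 526 CPM in the mutants at E11.5 and 6.35 and 1224 CPM at E13.5.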

How the data were processed

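RNA-seq of whole mouse tracheas was deposited as a table per stage with an estimated count and an RPKM value per gene entry and library, per the file headers and values; 76.3 to 82.6% of counts above 0 were not whole. The submitters' processing notes list Cufflinks 2.0.2, DESeq, TopHat2 2.0.8, Bowtie2 2.1.0 and the build mm9 without roles; the counting tool was not given in the sources used here. Together, the deposited RPKM and counts imply a gene length for each entry, and entries were joined by gene ID, dropping those at 0 in all 4 columns of a table (19588) and those whose length differed between the tables by over 0.1% (1037, holding 5.08 to 5.91% of counts). Unnamed entries, 2 and 6 in the tables, held at most 0.0253% of counts.

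Counts were summed per symbol and rounded, genes with low counts removed by edgeR's filter, and 8 libraries in 4 groups fitted with TMM and a robust quasi-likelihood model (edgeR 4.0.16, R 4.3.3), which left 4 residual degrees of freedom and a biological coefficient of variation of 7.29%. P-values were adjusted by Benjamini-Hochberg over 13768 genes. CPM uses the TMM library sizes, which had factors of 0.9792 to 1.019. Replicates correlated at 0.9901 to 0.9917 across genes and differed by more than sampling noise. Intervals and floors of 3 counts cover counting error only. DESeq2 1.42.0, limma-voom 3.58.1, other scalings and filters, thinning, the replicate block and leaving out each library were alternatives.

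Members and lists were chosen with earlier results of these data known, so no pattern here is independent of that choice. Named genes were first chosen by rule. They were the 12 largest rises and 12 largest falls with at least 10 CPM that did not overlap and held without either mutant library. The rule also took the 8 highest and 8 lowest differences with at least 5 CPM and up to 5 called members per list. A fixed set of pathway genes was added. Smoc2, Tek, Pax8, Tbx2, Myc, Ccnd1, Irx5, Hoxa5, Id3, Dcx, Col6a2, Ccno and other list members outside this rule were named after their values were seen. Promoter sequences are RefSeq's, of GRCm38.p6, while mm9 is the build that the submitters name, so no coordinates were carried between builds.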

Additional observations from a re-analysis of the deposited data

Results flagged for a closer look

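The change from E11.5 to E13.5 differed between mutant and control, by the test of the difference itself, for the 16 genes with the largest differences and for 6 of the genes named throughout. On the log2 scale, mutant minus control, the difference was 3.34 for Gdnf, 2.87 for Myh11, 2.72 for Aldh1a1, 2.45 for Tll1, 2.44 for Foxf2, 2.36 for Npas4, 2.18 for Trim9 and 2.16 for Itih2. The calls for Itih2 and Myh11 were lost with 1 library left out (adjusted p up to 0.0635 and 0.124). Aldh1a1, a retinaldehyde dehydrogenase that makes retinoic acid, went from 3.24 and 2.38 CPM to 81.4 and 69.8 CPM in the mutants and from 3.32 and 2.57 CPM to 11.04 and 13.1 CPM in the controls, and its call held whichever library was left out (adjusted p = 0.000114).

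The lowest differences were fitted at -11.5 for Reg3b, -10.8 for Dmbt1, -10.2 for Defa20, -10.1 for Gm15308, -9.78 for Gm15284, -9.68 for AI747448, -9.32 for Defa17 and -9.21 for Sis. The call for Gm15284 was lost with the replicate block and without either single E11.5 control or replicate 1 of the E13.5 mutants (adjusted p = 0.0216, up to 0.112). All 8 genes had 0 counts in both E13.5 mutants, so the fitted values are no bound. With the floor of 3 counts over the E13.5 mutants, their level there was at least 362.4-fold lower than in the E11.5 mutants for Reg3b, 259.4-fold for Dmbt1, 118.2-fold for Defa20, 105.3-fold for Gm15308, 128.8-fold for Gm15284, 79.54-fold for AI747448, 91.31-fold for Defa17 and 84.02-fold for Sis. All 8 are among the 69 genes that were more than 10-fold lower in both E13.5 mutants than in the other 6 libraries.

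Smaller differences were called for 6 further genes: -0.666 for Wls, 1.47 for Runx2, 0.486 for Epcam, -1.93 for Msx2, -0.499 for Hmga2 and -0.36 for Igf2. The Wls call held without any single library, and the other 5 were lost without at least 1 of the 8.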

How the results depend on the processing

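Among the genes named by rule, no direction reversed under any setting in which either value passed the test. Sign changes with neither value past the threshold were not counted, and other genes were not checked for this. Requiring 5 CPM in 2 libraries, which tests fewer genes, left 256 genes lower by at least 2-fold in the mutant, 723 higher and 142 lower by at least 2-fold in the control, and 156 lower differences, 71 of them by at least 2-fold. Leaving out the genes far lower in both E13.5 mutants, a choice made after seeing the data, left 91 lower differences of at least 2-fold, and leaving out the intestinal list left 124. Leaving out 1 library at a time, with the lone library of its group assumed to vary like the others, gave 2253 to 3159 higher and 2558 to 3377 lower genes in the mutant, 946 to 1223 and 466 to 583 of them by at least 2-fold. The control gave 1881 to 2914 and 1947 to 2996, 796 to 1213 and 200 to 266 of them by at least 2-fold. Differences ranged over 108 to 305 higher and 147 to 362 lower, 43 to 109 and 100 to 214 of them by at least 2-fold, so their count rests on single libraries. The counts moved by over 1.5 times without replicate 1 of the E11.5 controls (108 and 147), replicate 1 of the E11.5 mutants (151 and 147), replicate 1 of the E13.5 controls (111 and 155) and replicate 2 of the E11.5 controls (148 lower); the cause was not tested.

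Whether replicate numbers pair the samples is not stated. Deviations of same-numbered libraries correlated at -0.062 between the mutant stages and at -0.0132 to 0.0423 between other groups. A correlation across all genes cannot decide whether such libraries shared a litter or a day. With the replicate block, 3193 genes were higher and 3240 lower in the mutant, and 223 and 244 differed. DESeq2 called 2339 and 2494 genes in the mutant and 173 and 225 differences; limma-voom called 3165 and 3325, and 155 and 186. Among named genes, 82 values under other settings and 236 with a library left out lost their call, 55 and 68 gained one, and 4552 and 3328 did neither. Counts per list moved by over 1.5 times 37 and 58 times. With 2 libraries a group and 4 residual degrees of freedom, small differences cannot be resolved, and genes near 0 rest on few counts.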

Other observations

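Hormone and vitamin receptors mostly rose. Of 23 such genes, 13 rose and 2 fell in the mutant (median 0.49), and 12 rose and 2 fell in the control. The glucocorticoid receptor gene Nr3c1 rose from 34.7 and 35.2 CPM to 84.1 and 90.7 CPM (1.32 ± 0.07, adjusted p = 1.82e-08) and by 1.30 ± 0.07 in the control. Both the vitamin D receptor gene Vdr and the prolactin receptor gene Prlr had a lower change in the mutant. Vdr fell from 3.85 and 2.997 CPM to 0.431 and 0.702 CPM in the mutants, with the controls at 3.13 and 2.23 CPM and 2.62 and 2.43 CPM (difference -2.50 ± 0.49, adjusted p = 0.0114, up to 0.0555 with 1 library left out). Prlr had 1.72 and 0.881 CPM and then 1.29 and 1.46 CPM in the mutants while the controls rose from 1.38 and 0.858 CPM to 6.93 and 8.52 CPM (difference -2.68 ± 0.53, adjusted p = 0.0116, up to 0.111). Of 13 retinoic acid genes, 6 rose and 4 fell. Smoc2, a matricellular calcium-binding protein, chosen after its values were seen, had 70.9 and 68.7 CPM and then 221 and 213 CPM in the mutants, against 147 and 148 CPM and 120.1 and 136.7 CPM in the controls (1.83 ± 0.09, adjusted p = 9e-08).

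Metabolic and stress genes also moved. The shares of complement and antigen presentation genes that rose (26.3%) and fell (21.1%) lay near those of all genes (23.4% and 24.2%). Of 19 hypoxia and glycolysis genes, 13 rose and 1 fell in the mutant, with 0 to 2 falling on leaving out 1 mutant library (median 0.61). Egln3, an oxygen-sensing prolyl hydroxylase, rose from 14.8 and 14.5 CPM to 48.4 and 44.4 CPM, a difference of 0.87 ± 0.16 from the control (adjusted p = 0.00698). Of 22 immediate early and heat shock genes, 13 rose in the mutant and 3 in the control, and the test of the difference called 1 higher by edgeR and 0 by DESeq2; without replicate 1 or 2 of the E11.5 mutants 7 rose, and without replicate 1 of the E13.5 mutants 8. Egr1, an immediate early factor, had 13.1 and 12.96 CPM and then 275 and 105 CPM in the mutants (adjusted p = 0.0395, lost without 7 of the 8 libraries in turn, up to 0.178); at E13.5 replicate 1 was also the higher in skeletal and cardiac muscle genes. Of 19 complement and antigen presentation genes, 5 rose and 4 fell, with 3 rising without replicate 1 of the E11.5 mutants, 7 falling by limma-voom and 0 falling at 5 CPM in 2 libraries. Cd55, a complement regulator, rose from 66.9 and 69.2 CPM to 85.4 and 81.2 CPM in the mutants and fell from 54.9 and 54.8 CPM to 36.3 and 44.0 CPM in the controls, the mutant rise lost with 1 library left out (adjusted p up to 0.0551; difference 0.74 ± 0.12, adjusted p = 0.00283).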
